A study of Mus musculus with 3 samples.

Results

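The genes described here are 40 components of the protein folding and quality control machinery of the endoplasmic reticulum (ER). They form a list given by gene symbol, and all were found in the gene column of both deposited tables, which hold 45799 and 45776 gene symbols. By role, 13 are chaperones and lectins, 9 are disulfide enzymes and 3 act in translocation into the ER. A further 11 act in ER-associated degradation (ERAD), and 4 are stress sensors or the transcription factor XBP1. RNA was sequenced from RAW264.7, a macrophage-like line from the ascites of a mouse tumour that Abelson murine leukaemia virus had induced. There were 3 groups, untreated low density cells, untreated high density cells, and high density cells that received 500 ng/ml bacterial lipopolysaccharide (LPS) for 24 h, starting 24 h after seeding. With 1 library per group there is no replicate spread to compare a difference with, and no p-value was computed.

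Proteins that enter the secretory pathway are threaded into the ER, glycosylated, folded by chaperones and joined by disulfide bonds. Those that fail to fold are returned to the cytosol through ERAD and destroyed by the proteasome. When unfolded protein builds up, the membrane sensors IRE1, ATF6 and PERK start the unfolded protein response, in which cleaved ATF6 and spliced XBP1 switch on many of the genes listed here. In macrophages, Toll-like receptor signals can also engage IRE1 and XBP1.

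Levels are FPKM as deposited (fragments per kilobase of transcript, scaled to the fragments of the library). Such values are relative within a library, so a change in the number of transcripts per cell and a change in the rest of the RNA cannot be told apart. A level of 1 FPKM over 1 kilobase of transcript corresponded to between 15.2 and 17.6 fragments. Fragment counts are therefore small for members near 1 FPKM. This concerns counting alone. The high density level of P4hb, an abundant member, also differed between the deposited tables, as given further on. A gene was taken as measured at 1 FPKM or more in either library, and was counted as higher or lower at 2-fold or more on the log2(FPKM + 1) scale, which understates the change of low genes. Of the 10 macrophage markers checked, 8 were measured, with Lyz2 at 1712 FPKM at low density, while Mertk was listed at 0 in every library and Mrc1 was listed at 0 or at 0.033 FPKM. Markers of T cells, fibroblasts and epithelial cells reached 1 FPKM in 0 cases. Of 7 B cell markers, 2 were measured. Cd79b was at 0.224 FPKM at low and 1.12 at high density, and Ighm, joined with immunoglobulin segments into 1 row, was at 66.8 and 59.5. Ms4a1 and Igkc were listed at 0 throughout.

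Of the 40 members, 38 were measured, the same 38 in both tables. Derl3, an ERAD derlin, was listed at 0 in every library. Atf6b, the paralog of ATF6, has 4 rows, 1 on chromosome 17 and 3 on alternate scaffolds, all listed at 0. How reads were assigned among such copies is not known, so this 0 cannot be read as absence of the message. Derl2 was listed at 0 on chromosome 11, and its level, 1.88 FPKM at low density, comes from a row on an alternate scaffold. Edem1, a lectin of ERAD, shares a row with its neighbour Arl8b (chromosome 6, 108782924 to 108861991), so its level cannot be separated from that gene. The levels of both are given and counted among the 38, but cannot be read as those of the genes alone. The loci of Hspa5, Pdia3, Pdia6, Txndc5, Txndc11, Syvn1, Dnajb11, Erlec1 and Atf6 also overlap other protein-coding genes. Among them are Rabepk for Hspa5 and Psme4 for Erlec1. These rows name the member alone, and the overlap is of whole loci and not of exons. Without strand, reads from any stretch shared with a neighbour cannot be told apart, and whether there are such reads was not tested.

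Promoter sequences are shown first, because many of these genes are known to share a regulatory element. The ER stress element (ERSE), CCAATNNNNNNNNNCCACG, is known to be bound by ATF6 together with NF-Y. ERSE-II, ATTGGNCCACG, and the core of the unfolded protein response element, TGACGTGG, were searched as well, on both strands of RefSeq windows from 250 bases before to 50 bases after each start (GRCm38.p6). A window was found for 32 members. Hyou1, Manf, Sil1, Hspa13, Sec61a1, Derl1, Erlec1 and Atf6 had none in the table. An exact ERSE was present in 10 of the 32 members (31.25%), against 37 of 27025 genes in the whole table (0.137%). ERSE-II was present in 2 members (6.25%) against 0.0444% of all genes, and the response element core also in 2 against 0.714%. The list was drawn up from known components of this response, so these shares are descriptions of the list and not independent evidence.

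The core matches were in Txndc5 and Txndc11. The exact matches to ERSE and ERSE-II are printed below in the direction of the motif, with its fixed letters in capitals and the spacer in lower case.
Hspa5: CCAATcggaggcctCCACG
Hsp90b1 (far site): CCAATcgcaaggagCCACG
Hsp90b1 (near site): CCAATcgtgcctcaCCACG
Dnajc3: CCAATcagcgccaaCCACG
Calr: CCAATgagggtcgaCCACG
Canx: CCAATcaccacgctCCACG
Pdia6: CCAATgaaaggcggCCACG
Ero1lb: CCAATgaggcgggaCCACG
Creld2: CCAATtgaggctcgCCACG
Syvn1: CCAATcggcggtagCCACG
Derl3: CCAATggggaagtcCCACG
Dnajb11 (ERSE-II): ATTGGcCCACG
Herpud1 (ERSE-II): ATTGGgCCACG
The spacers differ between genes while the flanks are fixed by the search. The Hspa5 site lies at chr2:34772025-34772043 on the plus strand, and its first base is 65 bases before the start. The sites of Herpud1 (chr8:94386377-94386387, plus strand) and Syvn1 (chr19:6046532-6046550, plus strand) were also close, with first bases 52 and 44 bases before the start. ERSE sites lay before the start in every listed case, and the ERSE-II of Dnajb11 began 8 bases into the transcript.

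**Figure D1:**
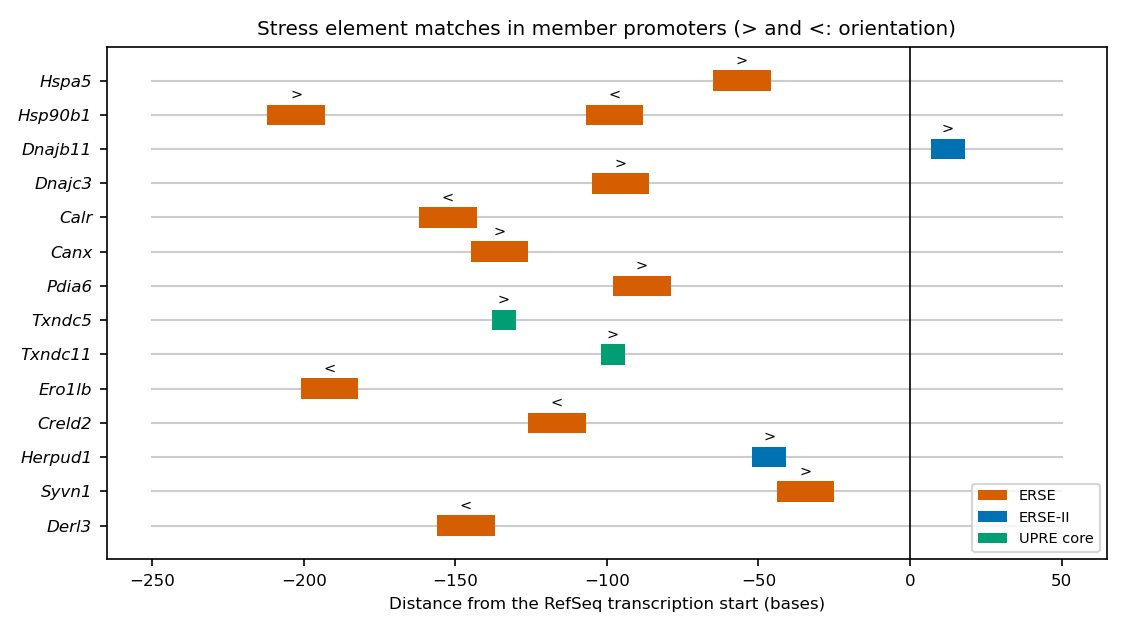
Exact motif matches in the promoter windows of the members that hold one, with distance from the RefSeq start in bases on the horizontal axis and one gene per line. Boxes are matches coloured by motif, and the arrowheads give orientation. ERSE boxes lie before the start in all 10 genes, and only Hsp90b1 has more than 1.

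The whole windows of Hspa5 and Hsp90b1 are shown because both encode abundant lumenal chaperones with exact ERSE sites and their ratios with LPS, given further on, were very unlike. Hsp90b1 was picked after its values were seen. Capitals mark the fixed letters of ERSE on either strand.
Hspa5, chr2:34771840-34772139, plus strand: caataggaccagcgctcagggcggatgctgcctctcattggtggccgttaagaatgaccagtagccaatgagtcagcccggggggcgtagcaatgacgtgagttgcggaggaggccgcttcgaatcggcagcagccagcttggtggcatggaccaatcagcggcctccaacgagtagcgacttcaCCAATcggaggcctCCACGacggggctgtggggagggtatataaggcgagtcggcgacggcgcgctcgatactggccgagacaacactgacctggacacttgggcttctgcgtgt
Hsp90b1, chr10:86705395-86705694, minus strand: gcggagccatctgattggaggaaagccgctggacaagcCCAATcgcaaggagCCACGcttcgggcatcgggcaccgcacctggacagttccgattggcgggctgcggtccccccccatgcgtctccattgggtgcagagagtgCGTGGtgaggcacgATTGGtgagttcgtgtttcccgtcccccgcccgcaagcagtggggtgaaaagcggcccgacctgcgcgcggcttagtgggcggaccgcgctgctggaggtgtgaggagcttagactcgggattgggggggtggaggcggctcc
Hspa5 holds 1 exact site and Hsp90b1 holds 2, one on each strand.

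The first comparison set high against low density. Most ER chaperones and folding enzymes had log2 ratios below 0 at high density, though within 2-fold, while Atf6, Ern1 and Xbp1 were at similar levels. Of 38 measured members, 30 had a ratio below 0 and 8 above, where 48.6% of all 10903 measured genes were below 0. The median log2 ratio of the members was -0.24, against 0.01 for all measured genes. Only P4hb was 2-fold or more higher, where 3.54% of all genes were, and 0 members were 2-fold or more lower, where 0.899% of all genes were. Hyou1 had the lowest ratio, at -0.83. With both libraries rescaled without the 20 highest genes, the median of all genes was -0.20 and that of the members -0.47, and 4 members were then 2-fold or more lower (Hyou1, Ssr1, Creld2 and Pdia4), where 2.16% of all genes were.

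Among chaperones, 12 of 13 had a ratio below 0 at high density, with a median log2 ratio of -0.45 and none past 2-fold. Hspa5 encodes BiP, the ER member of the Hsp70 family and a repressor of the sensors. In RefSeq the gene lies on chromosome 2 from 34772090 to 34776529, within a deposited locus of 34771936 to 34800196. The level of Hspa5 was 896 FPKM in the low and 548 in the high density library. This was a log2 ratio of -0.71, and the gene was the 96th most abundant of the measured genes at low density and the 164th at high density. Hyou1, the large Hsp70-related nucleotide exchange factor of BiP (chromosome 9, 44379490 to 44392369), was 184 and 103 FPKM. The J-domain cochaperones, which pass clients to BiP, had ratios below 0 as well. Dnajc3 was 23.8 and 15.0 FPKM, and Dnajb11 was 109 and 75.7. Dnajb9, the J protein that also binds IRE1, was 5.24 and 4.49 FPKM, a smaller difference.

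The lectin cycle retains glycoproteins until they fold. Calr (calreticulin) was 679 FPKM in the low and 461 in the high density library, and its membrane-bound relative Canx (calnexin) was 227 and 174. Uggt1, the glucosyltransferase that returns misfolded glycoproteins to these lectins, was 22.7 and 17.7 FPKM. Their log2 ratios were -0.56, -0.38 and -0.34, all within 2-fold. The remaining chaperones were Manf, a small secreted protein that binds BiP, at 295 and 215 FPKM, Sdf2l1 at 253 and 211, Hsp90b1 (GRP94) at 564 and 488, and Hspa13 at 9.79 and 6.22.

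Sil1, a second nucleotide exchange factor of BiP, stood apart from the other chaperones. Its level was 18.6 FPKM in the low and 36.7 in the high density library, a log2 ratio of 0.95 that was just inside 2-fold. Sil1 and Hyou1, which share this biochemical role, thus had the highest and the lowest ratio of the 13 chaperones at high density.

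Among disulfide enzymes, 8 of 9 had a ratio below 0 at high density, all within 2-fold. Pdia4 was 108 FPKM in the low and 62.5 in the high density library, and Creld2 was 79.3 and 44.9, with log2 ratios of -0.78 and -0.81. Pdia3, which acts on glycoproteins with the lectin chaperones, was 465 and 310 FPKM. Pdia6 was 534 and 460 FPKM, Txndc5 94.3 and 76.0, Pdia5 14.6 and 13.7, Txndc11 17.9 and 15.6, and Ero1lb, an oxidase that recharges disulfide isomerases, 21.1 and 18.4.

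P4hb encodes protein disulfide isomerase itself, which is also the beta subunit of collagen prolyl 4-hydroxylase (chromosome 11, 120560298 to 120573253). It was 354 FPKM in the low and 856 in the high density library, a log2 ratio of 1.27, and went against the other 8 disulfide enzymes. In the authors' deposited table its q was 0.917, and none of the 38 members was called there in this comparison, where 0.253% of tested loci were. Since both tables hold the high density library, its P4hb level can be read again in the table with LPS, where it was 604 FPKM. That is lower by 0.50 on the log2 scale, whereas the other 37 measured members were lower by between 0.07 and 0.16, close to the median of all genes, -0.13. Of 10470 genes, 119 were shifted as far down as P4hb (1.14%). With the high density level taken from the table with LPS and moved by that median, the log2 ratio of P4hb was 0.90, under 2-fold.

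**Figure D2:**
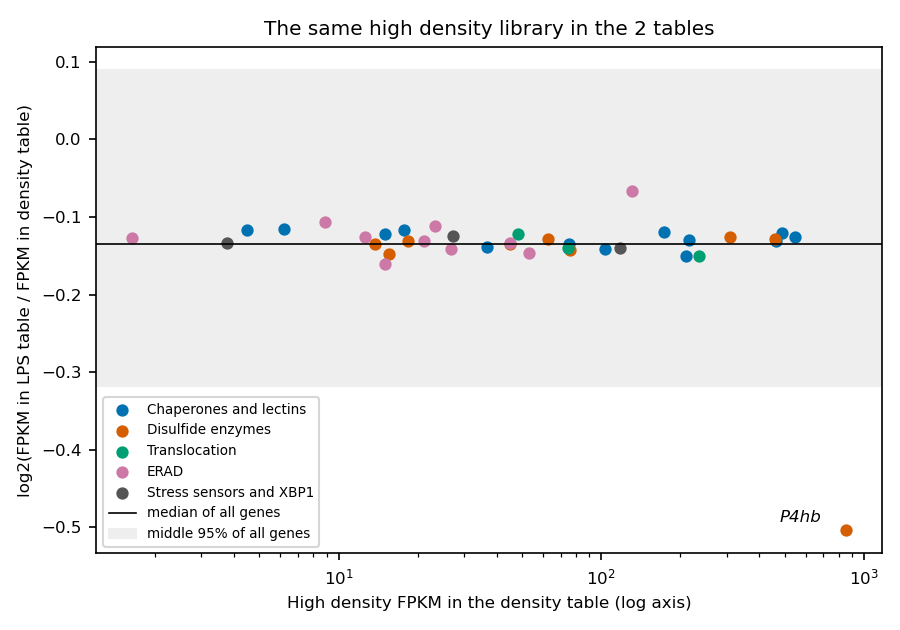
The high density library as given in the 2 tables, with its FPKM in the density table on a log horizontal axis and the log2 difference of the LPS table from the density table on the vertical axis. Each point is 1 measured member, the line is the median of all genes at -0.13, and the band holds the middle 95% of them; P4hb lies at -0.50, outside the band.

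Genes of known function beside P4hb were looked up after its value was seen. Ero1l, the paralog of Ero1lb and a known target of hypoxia-inducible factor, was 43.1 FPKM in the low and 316 in the high density library. P4ha1, a catalytic alpha subunit that joins P4hb in prolyl hydroxylase, was 46.2 and 71.8 FPKM. P4ha2 and P4ha3, looked up with it, were listed at 0 in both libraries. The oxidase paralogs therefore differed, Ero1l with a log2 ratio of 2.85 and Ero1lb with -0.19.

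The 3 translocation genes had ratios below 0, also within 2-fold. Ssr1, a subunit of the translocon-associated complex, was 86.0 FPKM in the low and 48.1 in the high density library, a log2 ratio of -0.82 and the second lowest among members. Sec61a1, the channel itself, was 93.0 and 74.7 FPKM, and its small subunit gene Sec61b was 252 and 236.

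ERAD genes had a median log2 ratio of -0.09, with 7 of 10 measured members below 0 and 3 above. After the rescaling without the 20 highest genes the median was -0.29, with 9 below 0 and 1 above. Without the shared row of Edem1 (143 and 131 FPKM) and the scaffold row of Derl2 (1.88 and 1.64), the median of the other 8 as deposited was -0.05, with 5 below 0. Selenos, a selenoprotein of the retrotranslocation complex, was 35.5 FPKM in the low and 21.1 in the high density library. The ligase partner Sel1l was 17.5 and 12.6 FPKM, and the ubiquitin ligase gene Syvn1 (HRD1) was 18.9 and 15.1. In the other direction, the mannosidase-like gene Edem2 was 40.4 and 53.0 FPKM and Herpud1, which organises the ligase complex, 23.8 and 26.8, although the rescaling without the 20 highest genes put Herpud1 at -0.06. Derl1 (47.2 and 45.0 FPKM), Os9 (23.7 and 23.2) and Erlec1 (8.58 and 8.90) differed little between the 2 libraries.

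All 3 measured sensor genes had ratios above 0. Xbp1 was 96.6 FPKM in the low and 118 in the high density library, Atf6 was 25.5 and 27.2, and Ern1, which encodes IRE1, was 3.34 and 3.78. After the same rescaling Atf6 was at -0.14, Ern1 at -0.05 and Xbp1 at 0.05, so no direction is given for the sensors. The tables are per gene, so the spliced form of Xbp1, which is the active one, was not measured here.

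**Figure D3:**
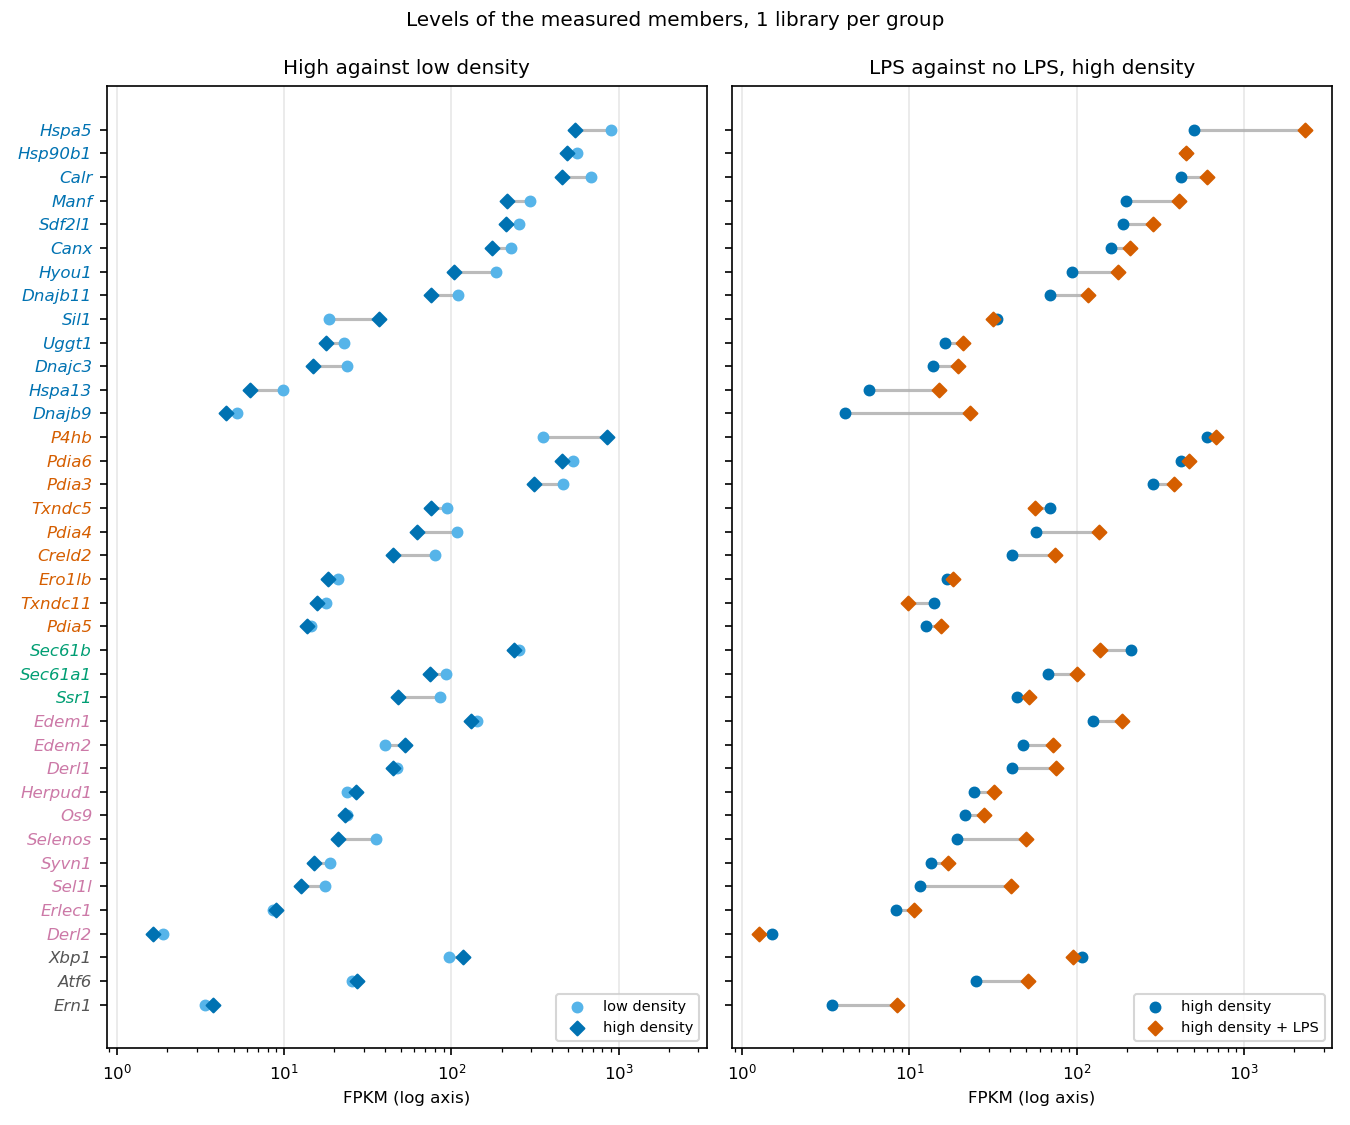
FPKM of the 38 measured members on a log axis, with circles for the first and diamonds for the second library of each comparison, and gene names coloured by role. At high density the diamonds of 30 members lie to the left of the circles and those of 8 to the right, furthest for P4hb and Sil1, and with LPS the longest lines belong to Hspa5, Dnajb9 and Sel1l.

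The second comparison set LPS-treated against untreated high density cells. Of the 38 measured members, 9 were 2-fold or more higher, where 8.60% of all 11001 measured genes were, and 0 were 2-fold or more lower, where 5.84% were. The median log2 ratio was 0.44, against 0.03 for all measured genes. Ratios were above 0 for 32 members and below 0 for 6, where 52.0% of all measured genes were above 0. The 9 members were Dnajb9, Hspa5, Sel1l, Selenos, Hspa13, Pdia4, Ern1, Manf and Atf6, and they came from 4 of the 5 roles. Rescaling to the same 75th percentile took Atf6, Ern1 and Manf under 2-fold, and a pseudocount of 5 FPKM took Atf6, Ern1 and Hspa13 under it. In each case 6 members from 3 roles were left. Of all genes, 7.14% were higher after the rescaling and 4.32% with the pseudocount. All 9 were above 1 FPKM without LPS, so none was measured through the LPS library alone.

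With LPS Hspa5 had the highest level of the members, and its absolute difference was the largest among them. Without LPS P4hb was the highest, at 604 FPKM. Hspa5 was 503 FPKM without LPS and 2308 with LPS, a log2 ratio of 2.20, and moved from the 164th to the 37th most abundant measured gene. Summed over the 38 members, levels were 4449 FPKM without and 7465 with LPS, or 0.678% and 1.11% of the FPKM of all measured genes. Hspa5 accounted for 59.9% of that increase and made up 30.9% of the members' sum with LPS, against 11.3% without. Without Hspa5 the members' median was 0.41.

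Dnajb9 had the largest ratio, at 4.15 FPKM without LPS and 22.9 with it (chromosome 12, 44205897 to 44210068), a log2 ratio of 2.21. The other J-domain cochaperones differed less. Dnajb11 was 68.9 and 116 FPKM, and Dnajc3 was 13.8 and 19.4. Hspa13, an Hsp70-like gene of microsomes, was 5.75 and 15.1 FPKM. Manf was 197 and 410 FPKM. Hyou1 was 93.5 and 177 FPKM and Sdf2l1, a partner of the J protein encoded by Dnajb11, was 190 and 288, both within 2-fold.

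Hsp90b1, by contrast, was 449 FPKM without and 451 with LPS, a log2 ratio of 0.01. The lectin cycle genes lay above 0 and within 2-fold, with Calr at 421 and 602 FPKM, Canx at 160 and 209, and Uggt1 at 16.3 and 20.9. Sil1 was 33.3 and 31.4 FPKM, the only chaperone with a ratio below 0 as deposited; under both rescalings Hsp90b1 was also below 0. Within the lumenal chaperones, BiP was thus 4.59 times its level without LPS in FPKM, and GRP94, which folds Toll-like receptors and integrins, was 1.01 times its level. Without LPS the FPKM of Hspa5 and Hsp90b1 were close, and with LPS that of Hspa5 was the higher by far.

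Of the disulfide enzymes only Pdia4 was past 2-fold, at 57.2 FPKM without LPS and 136 with it. Creld2, an oxidoreductase induced by ER stress, was 40.9 and 74.4 FPKM. Pdia3 was 284 and 379 FPKM, Pdia5 12.5 and 15.5, Pdia6 421 and 468, and Ero1lb 16.8 and 18.3. P4hb was 604 and 680 FPKM, a log2 ratio of 0.17 that became -0.20 with the high density level of the other table, so no direction is given for it. The thioredoxin-domain genes Txndc5 and Txndc11 had ratios below 0 and within 2-fold, at 68.8 and 56.3 FPKM and at 14.1 and 9.82. The median ratio of the 9 was 0.17, below that of the chaperones at 0.59.

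In translocation, Sec61a1 was 67.8 FPKM without and 100.4 with LPS, whereas Sec61b was 212 and 139. The alpha and beta subunits of the same channel thus had ratios of opposite sign, 0.56 and -0.61, and Sec61b had the lowest ratio of all members. Ssr1 was 44.2 and 51.5 FPKM.

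In ERAD, 9 of 10 measured members had ratios above 0, with a median of 0.48, and without Edem1 and Derl2 8 of 8 did, with a median of 0.49. Sel1l, the adaptor of the HRD1 ligase (chromosome 12, 91806036 to 91849157), was 11.5 FPKM without and 40.3 with LPS. Selenos (chromosome 7, 66079649 to 66089405) was 19.3 and 50.1 FPKM. Both were past 2-fold, whereas the ligase gene Syvn1 itself was 13.5 and 16.9. Derl1, a channel component, was 41.0 and 75.3 FPKM, Edem2 was 47.8 and 72.01, and the shared row of Edem1 and Arl8b was 125 and 186. Herpud1 was 24.3 and 32.1 FPKM, and the lectins Os9 and Erlec1 were 21.5 and 28.0 and 8.27 and 10.6. Derl2, from its scaffold row, was 1.499 and 1.27 FPKM.

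Of the sensors, Atf6 was 24.9 FPKM without and 51.2 with LPS, and Ern1 was 3.44 and 8.42. Xbp1 was 107 and 94.4 FPKM, so the total message of this factor was not higher with LPS. Atf6 lay at a log2 ratio of 1.01, just past the threshold, and Hyou1, at 0.91, was the nearest member below it. With LPS, 0 of the 38 members were called in the authors' deposited table, whereas 0.341% of tested loci were. In the authors' deposited table the lowest q among members was 0.355 for Dnajb9, followed by 0.396 for Sel1l and 0.616 for Hspa5.

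**Figure D4:**
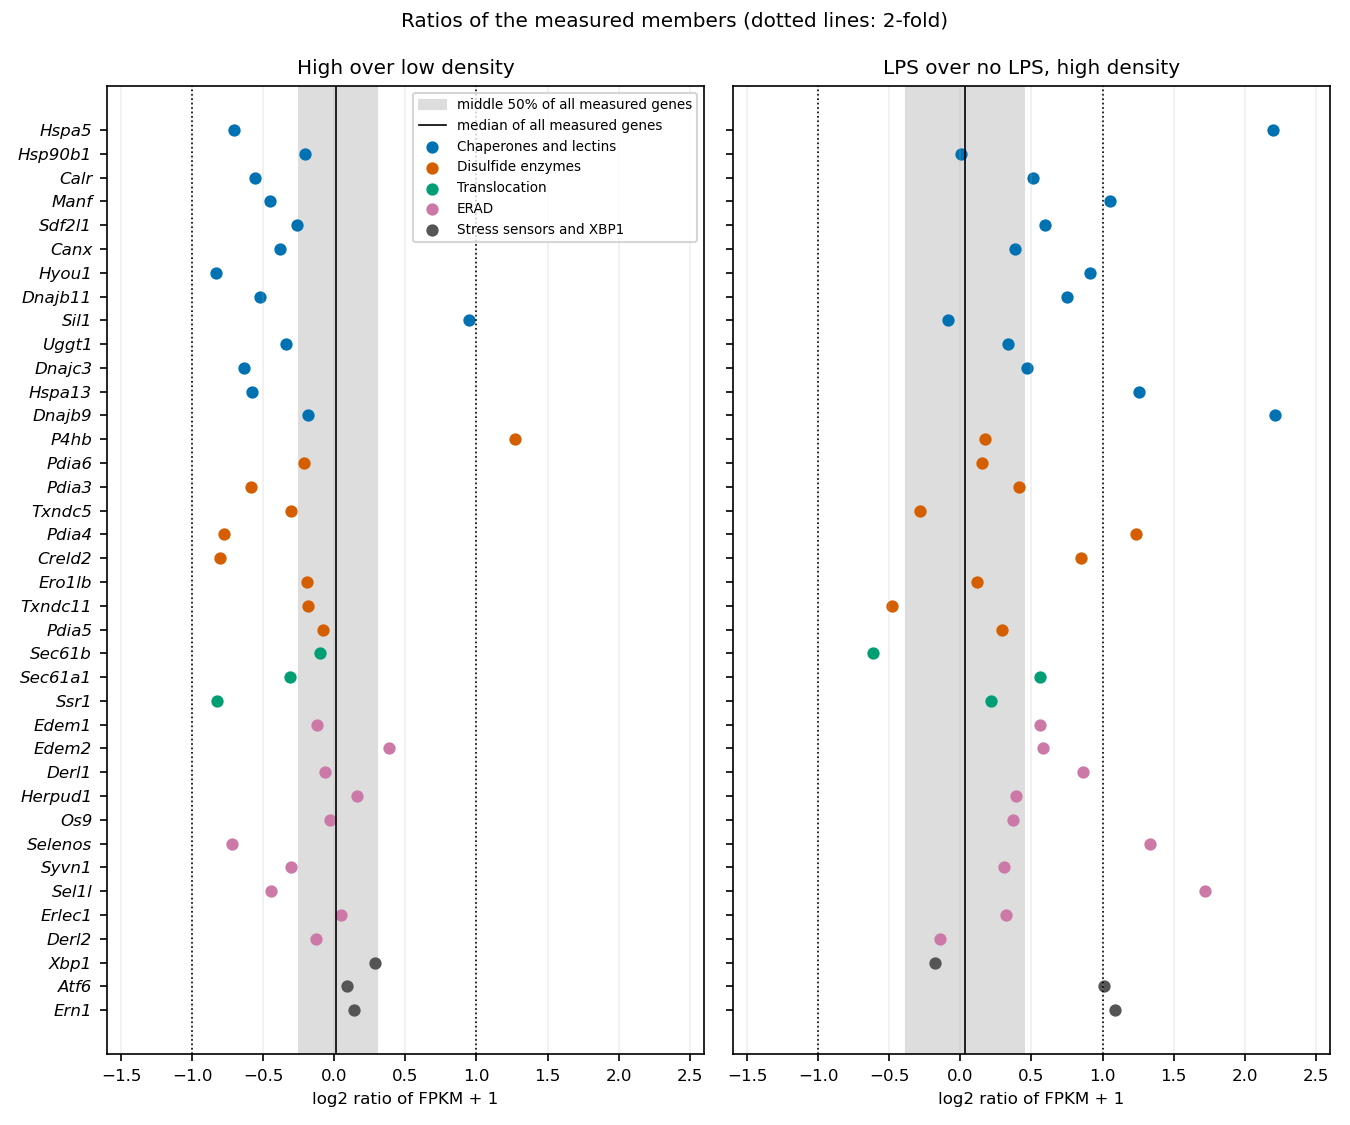
Log2 ratios of FPKM + 1 for the 38 measured members in the 2 comparisons, coloured by role, with dotted lines at 2-fold. The vertical line and grey band are the median and the middle 50% of all measured genes. The 9 members past 2-fold with LPS stand right of the dotted line, and P4hb alone does so at high density.

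Both comparisons use the high density library, so a low value there would lower the first ratio and raise the second. The values of each are therefore given side by side and not set against each other. For Pdia4 they were 108 and 62.5 FPKM for low and high density, and 57.2 and 136 without and with LPS. For Creld2 they were 79.3 and 44.9, and 40.9 and 74.4. For Xbp1 they were 96.6 and 118, and 107 and 94.4. Edem2 was at 40.4 and 53.0, and at 47.8 and 72.01, with ratios above 0 in both. Txndc5 was at 94.3 and 76.0, and at 68.8 and 56.3, with ratios below 0 in both. These genes are examples, and the values of the other measured members are given above.

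Promoter motifs and levels were also set side by side. Of the 6 members with a promoter window that were 2-fold or more higher with LPS, 1 held an exact ERSE or ERSE-II, Hspa5. Of the 24 other measured members with a window, 10 did, with LPS ratios from 0.01 for Hsp90b1 to 0.85 for Creld2. Allowing 1 changed letter in ERSE, a search added after the values were seen, gave 3 of the 6 (Hspa5, Pdia4 and Sel1l) and 11 of the 24, against 1.72% of all genes. Dnajb9, Selenos and Ern1 had no such match in this window.

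Neighbouring parts of the secretory pathway were described with lists that hold none of the 40 genes. At high density the medians were -0.16 for N-glycosylation and glycan trimming (19 measured), -0.12 for translocation and signal peptide removal (19), -0.20 for further ERAD and p97 genes (20) and -0.13 for vesicle traffic (26), with 0 genes past 2-fold in each. After the rescaling without the 20 highest genes they were -0.40, -0.36, -0.41 and -0.36, where the median of all genes was -0.20. Further folding factors had a median of 0.12, or -0.10 after that rescaling, with 1 of 24 past 2-fold, Ero1l. As 3.54% of all genes were higher, nothing is read from this count. Sensor processing genes had -0.03, or -0.26 after it, with 0 of 18 past 2-fold. The PERK arm and its targets had 0.28, with 5 of 17 higher and 0 lower, where 3.54% of all genes were higher as deposited. After the rescaling without the 20 highest genes 4 of the 17 were higher, where 2.31% of all genes were. The 5 higher as deposited were Ddit4, Ddit3, Trib3, Nupr1 and Atf3. Ddit4, a brake on mTORC1 also known as a hypoxia target, was 18.4 and 113 FPKM. Ddit3 was 9.42 and 35.1 FPKM, Trib3 5.67 and 17.3, Nupr1 22.5 and 58.3, and Atf3 34.2 and 75.8. Hence the median of the PERK list was above 0 at high density while that of the members was below 0. After that rescaling the medians were 0.11 and -0.47. The list holds messages only, so the activity of PERK was not measured.

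With LPS the medians were 0.10 for N-glycosylation (-0.02 after rescaling to the same 75th percentile), 0.39 for translocation, 0.37 for further ERAD genes, 0.45 for vesicle traffic and 0.44 for sensor processing. Higher by 2-fold or more were 0 of 19, 1 of 20, 0 of 20, 1 of 26 and 1 of 18, each at or under the 8.60% of all genes, so nothing is read from these counts. The single genes were the signal recognition particle receptor gene Srpr at 68.8 and 172 FPKM, the COPII coat gene Sec24a at 5.28 and 13.6, and Creb3, a membrane-bound transcription factor, at 19.8 and 44.1. In further folding factors, 1 of 24 was 2-fold or more lower, Erp29 at 343 FPKM without LPS and 124 with it, and the median was 0.22. Of all genes 5.84% were lower, so nothing is read from this count either. The PERK list had a median of 1.11, with 9 of 17 higher, against 8.60% of all genes, and 1 lower, Ddit4 at 101.9 and 28.9 FPKM. The 9 higher were Sqstm1, Atf3, Ppp1r15a, Ddit3, Trib3, Asns, Atf4, Slc7a11 and Cebpb. The largest ratio of the list was that of Sqstm1, the autophagy receptor p62, at 146 and 1335 FPKM. Next by ratio were Atf3 at 69.1 and 415 FPKM, Ppp1r15a at 13.5 and 78.7, and Ddit3 at 31.7 and 152. Eif2ak3, the gene of PERK itself, was 7.03 and 7.64 FPKM, a log2 ratio of 0.11. Activity of PERK was not measured, and whether PERK drove the levels of this list was not tested.

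**Figure D5:**
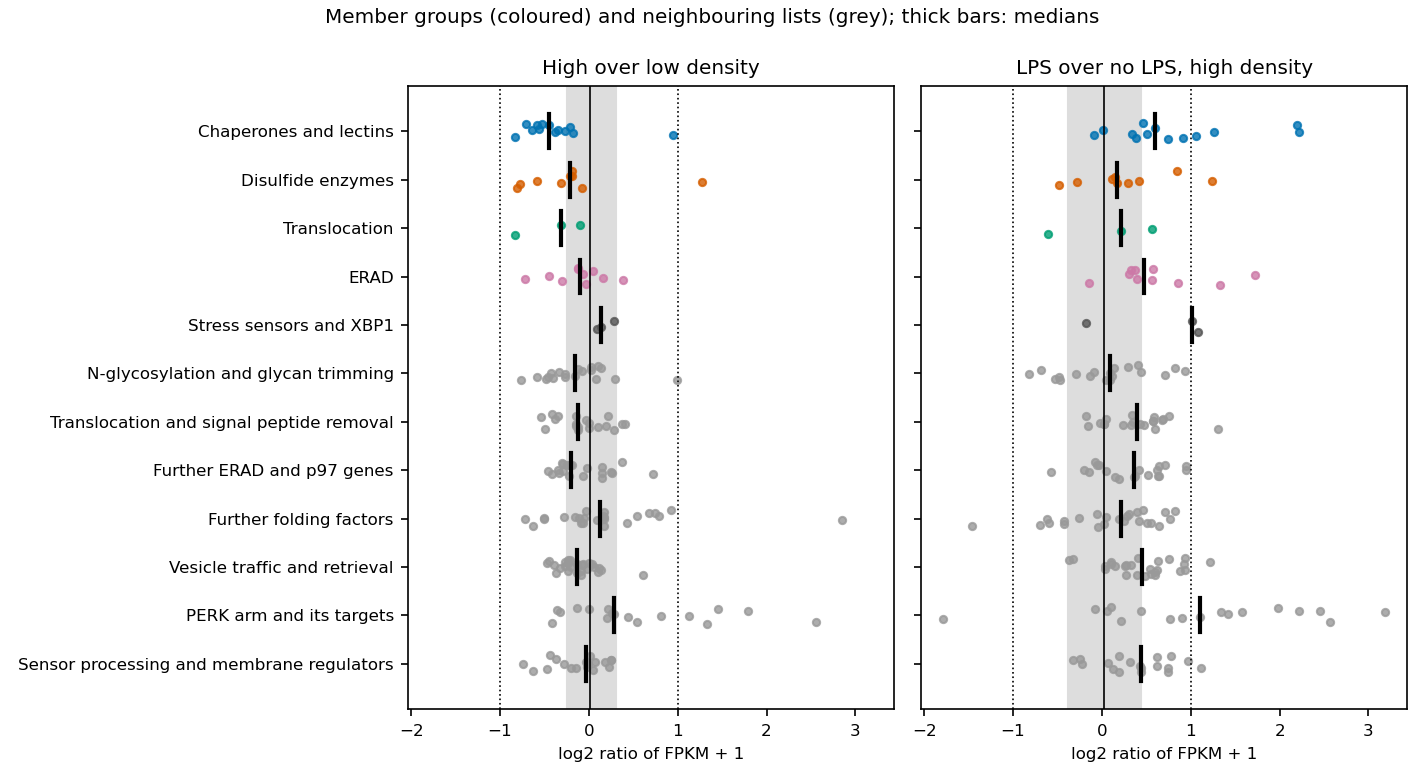
Log2 ratios of FPKM + 1 for the 5 member groups (coloured) and 7 neighbouring lists (grey), one point per measured gene, with thick bars at the medians and the grey band for the middle 50% of all measured genes. The PERK list has the rightmost median with LPS, at 1.11, and the chaperones the leftmost at high density, at -0.45.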

How the data were processed

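RNA-seq of 3 libraries, 1 per group, was deposited as 2 tables. Per the submitters' processing notes, FastQC, fastp, TopHat2 and Cuffdiff were used with GRCm38 and mm10; no source used here gives versions, strand or annotation. The deposited tables hold the authors' FPKM, log2 ratios, test statistics (a score) and p-values and q-values per locus, per the file headers; these values were scaled separately in each table, so ratios were made within a table.

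Gene symbols were split on commas, and the row of the largest summed level was kept per symbol. Rows with failed status were left out (0 and 12). Measured genes had 1 FPKM or more in either library, which left 10903 and 11001. Ratios are log2((FPKM + 1)/(FPKM + 1)). Starts were raised by 1. Gene coordinates in brackets, other than those of motif sites, are those of the deposited loci. The fragment step was read from low values in single-transcript genes. All 40 members were named, and from neighbouring lists the genes that were 2-fold or more higher or lower, and Eif2ak3. Members, roles and lists were chosen with earlier results of these data known. Promoter sequences are from RefSeq (GRCm38.p6). Ratio steps were tested on simulated data. Python 3.11.15, pandas 2.3.3, numpy 2.4.6 and matplotlib 3.10.9 were used.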

Additional observations from a re-analysis of the deposited data

How the results depend on the processing

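The members' median log2 ratio kept its sign under all 12 alternatives that give one. At density it ranged from -0.47 to -0.23, with -0.47 after rescaling without the 20 highest genes, the only setting that moved it by more than 0.13, the median shift of the high density library between tables. With LPS it ranged from 0.33 to 0.47. At density, members 2-fold or more lower were 4 after that rescaling and 7 at a 1.5-fold threshold, where 6.04% of all genes were lower. Members higher at density were 2 at 1.5-fold, where 11.5% of all genes were, and 0 with the high density level of the other table, an alternative chosen after seeing the data. With LPS, members higher ranged from 6 to 9 at the 2-fold threshold, and at 1.5-fold they were 14 higher and 1 lower, where 19.0% and 16.0% of all genes were. Leaving out Edem1 and Derl2 was also chosen after seeing the data. Both were within 2-fold in each comparison, so this could not change the 2-fold counts and says nothing about them. A pseudocount of 5 FPKM took Atf6, Ern1 and Hspa13 under 2-fold and left 6, where 4.32% of all genes were higher. Rescaling to the 75th percentile took Atf6, Ern1 and Manf under 2-fold and left 6, where 7.14% of all genes were higher. That rescaling moved the share of all 2-fold genes that were higher, from 946 higher and 642 lower to 787 and 819, and put the median of all genes at -0.08, against 0.33 for the members. For density, rescaling without the 20 highest genes moved it from 386 and 98 to 252 and 236. The cause was not tested. No paired analysis was possible because each group has 1 library. Depth limits Derl2, near 1 FPKM.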
